A study of Arabidopsis thaliana with 14 samples.

Results

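A pair of peak lists was set against each other here: one of a truncated ARR1 that lacks its receiver domain (ARR1∆DDK, induced with dexamethasone) and one of full-length ARR1 in seedlings given the cytokinin 6-benzylaminopurine (6-BA), written ARR1_BA. The regions compared were equal numbers of peaks with the highest −log10 p-value (the peak score) in each list. These were every deposited ARR1∆DDK peak, 1581 that overlapped the other list and 1335 that did not, and the top of the 7846 ARR1_BA peaks, 1522 that overlapped and 1394 that did not, out of 66593 peaks in the 10 lists of the series. ChIP-seq (chromatin immunoprecipitation followed by sequencing) was done with an anti-GFP antibody on whole 3-day-old Arabidopsis seedlings grown in long days. The ARR1∆DDK seedlings received 10 µM dexamethasone (Dex) for 4 h, and the ARR1_BA seedlings 10 µM 6-BA for 4 h.

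The constructs differed in more than the truncation. By the study's methods, ARR1∆DDK carried a YFP tag at its N-terminus and the glucocorticoid receptor domain (GR) at its C-terminus, in a plant transformation vector. The study's text describes this fusion under the cauliflower mosaic virus 35S promoter and also a form expressed in stem cells. The methods mention a YFP tag for this fusion and none for the stem-cell form, and the anti-GFP antibody goes with the tagged one. The sample's labels do not name the promoter. Full-length ARR1 carried Ypet, a yellow fluorescent protein, at its C-terminus inside a large genomic clone with its own regulatory sequence, in Col-0. Truncation, fusion partner, expression construct, inducing agent and library therefore changed together, and their shares in any difference cannot be told apart. The line label of the ARR1∆DDK sample names the full-length ARR1 line, so the sample was identified by its title and its Dex treatment. Each list was 1 combined product of replicates, so no replicate spread and no test exist for any difference, and the read depth behind the lists is unknown. Intervals below are 95% Wilson intervals for percentages and order-statistic intervals for medians, and cover counting error only.

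ARR1 is a type-B response regulator (B-ARR), a transcription factor at the end of the cytokinin phosphorelay. Its receiver domain accepts the phosphoryl group that comes from the receptor histidine kinases (AHKs) through the phosphotransfer proteins (AHPs), and the unphosphorylated domain holds the factor back, so a form without it is active without cytokinin. A GR fusion stays in the cytoplasm until Dex lets it enter the nucleus. Well-known targets include the type-A response regulators (A-ARRs), which damp the pathway.

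The genome sequence under 9 summits is printed to show the sites that the comparison turns on. Each stretch has 60 bases to either side of the summit, from the plus strand of TAIR10.1 (RefSeq), so that the summit is base 61. Capitals mark words of the B-ARR-6-BA motif (AGAT followed by AC, AT or CC, or else by CT, TC or TT, on either strand) and of the W-box core TTGAC, which WRKY factors bind (either strand). The first 3 lie under overlapping peaks and are centred on the ARR1∆DDK summit.
ARR4, chr1:3444694-3444814: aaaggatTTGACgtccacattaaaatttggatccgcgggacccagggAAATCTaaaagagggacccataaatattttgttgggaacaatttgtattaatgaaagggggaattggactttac
ARR9, chr3:21108816-21108936: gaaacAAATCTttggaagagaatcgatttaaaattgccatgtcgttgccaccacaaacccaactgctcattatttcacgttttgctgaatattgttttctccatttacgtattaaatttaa
AHK4, chr2:368902-369022: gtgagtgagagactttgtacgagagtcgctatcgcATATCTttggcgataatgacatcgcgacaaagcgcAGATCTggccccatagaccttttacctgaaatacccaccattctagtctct
The ARR1_BA summit lay at base 114 of the ARR4 stretch, at base 11 of the ARR9 stretch and at base 50 of the AHK4 stretch. The ARR4 and ARR9 stretches are upstream of these A-ARR genes, and the AHK4 stretch is in an intron of this cytokinin receptor gene.

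The next 3 lie under ARR1∆DDK peaks that overlapped none of the top ARR1_BA peaks.
BBX29, chr5:22115917-22116037: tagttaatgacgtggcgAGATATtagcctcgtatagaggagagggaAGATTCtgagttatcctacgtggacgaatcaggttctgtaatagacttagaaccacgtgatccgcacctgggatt
CRF2, chr4:12377615-12377735: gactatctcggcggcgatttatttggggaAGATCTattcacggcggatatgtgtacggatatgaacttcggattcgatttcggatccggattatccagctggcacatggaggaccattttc
CLV3, chr2:11666804-11666924: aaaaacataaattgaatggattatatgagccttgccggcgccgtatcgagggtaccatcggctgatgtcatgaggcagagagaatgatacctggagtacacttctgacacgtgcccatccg
BBX29 (a B-box zinc finger factor) and CLV3 (the signal peptide of shoot stem cells) had their summits upstream of the gene, and CRF2 (a cytokinin response factor) in its coding sequence.

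The last 3 lie under ARR1_BA peaks that overlapped no ARR1∆DDK peak.
SAUR15, chr4:18125744-18125864: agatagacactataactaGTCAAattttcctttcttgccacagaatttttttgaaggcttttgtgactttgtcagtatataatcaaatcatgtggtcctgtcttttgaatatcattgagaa
KMD1, chr1:30242247-30242367: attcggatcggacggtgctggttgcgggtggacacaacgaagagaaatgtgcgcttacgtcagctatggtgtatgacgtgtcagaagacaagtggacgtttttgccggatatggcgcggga
CRK11, chr4:12143861-12143981: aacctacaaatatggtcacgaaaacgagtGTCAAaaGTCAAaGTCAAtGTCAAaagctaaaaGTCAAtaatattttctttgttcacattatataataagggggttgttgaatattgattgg
SAUR15 (an auxin-induced gene for a small protein) and CRK11 (a cysteine-rich receptor-like kinase) had the summit upstream, and KMD1 (an F-box protein that targets B-ARRs for degradation) in its coding sequence. The CRK11 stretch holds 5 TTGAC words and no B-ARR-6-BA word, and the KMD1 and CLV3 stretches hold neither.

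Peak scores ran from 31.21 to 303.40 in the ARR1∆DDK list, with a median of 49.32, and from 22.08 to 120.42 in the ARR1_BA top list, with a median of 32.32. Of the 52 ARR1_BA peaks at the limit of 22.08, 33 were kept, those with the higher fold enrichment over input DNA. Median fold enrichment was 5.17 for ARR1∆DDK and 2.82 for ARR1_BA. ARR1∆DDK peaks were narrower, with a median width of 883 bp against 1357.5 bp for ARR1_BA, and 62 of them were over 3 kb wide against 319 for ARR1_BA. Scores depend on depth and were compared only as ranks within a list.

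Of all ARR1∆DDK peaks, 1581 (54.2%, interval 52.4 to 56.0) overlapped an ARR1_BA top peak by at least 1 bp. Counted from the other side, 1522 of the top ARR1_BA peaks (52.2%, 50.4 to 54.0) overlapped an ARR1∆DDK peak. The remaining 1335 ARR1∆DDK peaks and 1394 ARR1_BA peaks are called ARR1∆DDK-only and ARR1_BA-only. Of the 1335 ARR1∆DDK-only peaks, 791 overlapped a lower ARR1_BA peak among the 7846 deposited, and 544 overlapped none. The ARR1∆DDK list ends at a score of 31.21, so no such second look was possible for the ARR1_BA-only peaks.

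Agreement was close to complete among the highest peaks and fell with rank. Of the highest 100 peaks, 97 of ARR1∆DDK (97.0%, 91.5 to 98.97) and 93 of ARR1_BA (93.0%, 86.3 to 96.6) overlapped the other list. Below rank 300 and down to rank 1000 the shares were 69.6% (66.1 to 72.9) for ARR1∆DDK and 69.9% (66.4 to 73.1) for ARR1_BA. Below rank 2000 they were 34.2% (31.2 to 37.3) for ARR1∆DDK and 34.6% (31.6 to 37.7) for ARR1_BA. Within the overlapping pairs the order of the scores was only loosely shared, with a Spearman correlation of 0.34 across 1581 pairs, which share the genome and are not replicates. In 125 pairs both peaks were among the highest 300 of their list, in 15 the ARR1∆DDK peak was among the highest 300 and the ARR1_BA peak below rank 2000, and in 20 the reverse held.

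**Figure D1:**
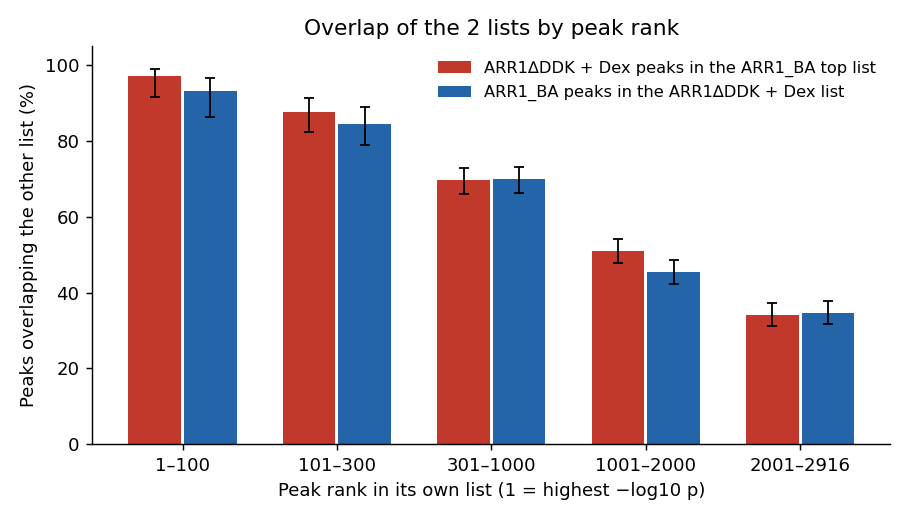
Share of peaks (%) that overlap the other list, by rank of the peak in its own list, for ARR1∆DDK + Dex (red) and ARR1_BA (blue), with 95% Wilson intervals. The shares were 97.0% and 93.0% for ARR1∆DDK and ARR1_BA at ranks 1 to 100, and 34.2% and 34.6% below rank 2000.

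Where the lists overlapped, they mostly pointed to the same position. The nearest ARR1_BA summit lay a median of 40 bp (38 to 43) from the ARR1∆DDK summit over 1581 pairs, with quartiles of 18 and 88 bp. It was within 50 bp in 913 pairs (57.7%) and within 100 bp in 1220 (77.2%), and over 500 bp away in 196 (12.4%). Distant summits went with wide ARR1_BA peaks. Peak width limits how far apart the summits of overlapping peaks can lie, so part of this association follows from the overlap rule. In the 794 pairs whose ARR1_BA peak was up to 1500 bp wide, 20 summits (2.52%) were over 500 bp apart, against 176 (22.4%) of the 787 pairs with a wider one. The ARR1_BA peak was the wider of the pair in 1248 pairs (78.9%), with a median width ratio of 1.43 to the ARR1∆DDK peak, and 68 ARR1_BA peaks each covered 2 or 3 ARR1∆DDK peaks. Over the 125 pairs within the highest 300 of both lists the median distance was 27 bp (22 to 36).

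**Figure D2:**
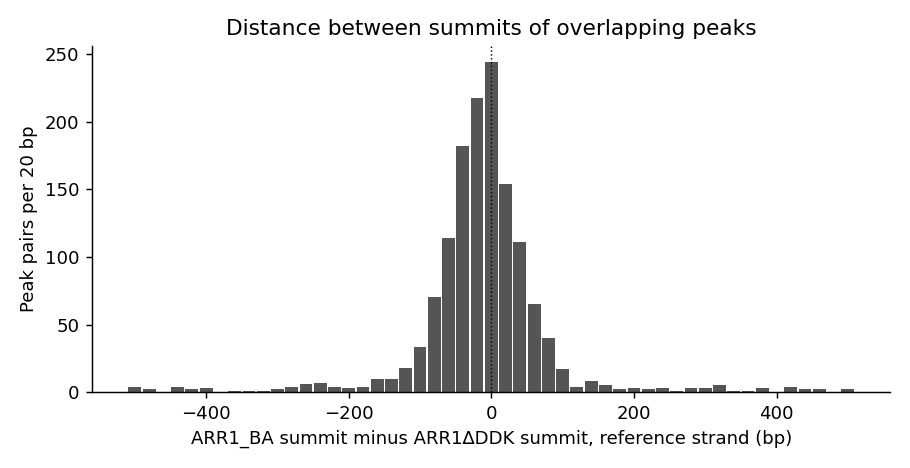
ARR1_BA summit position minus ARR1∆DDK summit position on the reference strand (bp), as the number of peak pairs per 20 bp. The bars centre close to 0, and 196 of 1581 pairs were more than 500 bp apart, beyond the ends of the axis for most of them.

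Position around genes differed between the lists. ARR1∆DDK summits lay within 250 bp of a transcription start site (TSS) in 1495 peaks (51.3%, 49.5 to 53.1), against 1097 (37.6%, 35.9 to 39.4) for ARR1_BA. Of all nuclear positions, 14.96% lie that close to a TSS. The gap sat in the list-specific peaks, as it largely had to, because the summits of most overlapping peaks were close together. ARR1∆DDK-only summits were within 250 bp of a TSS in 61.05% (58.4 to 63.6), against 33.1% (30.7 to 35.7) of ARR1_BA-only summits. In overlapping peaks the shares were 43.0% (40.6 to 45.5) at the ARR1∆DDK summits and 41.7% (39.3 to 44.2) at the ARR1_BA summits. The 544 ARR1∆DDK peaks with no ARR1_BA peak at all had the highest share, 64.2% (60.04 to 68.1). Rank within the list made little difference, since the highest 1000 peaks gave 50.3% for ARR1∆DDK and 36.1% for ARR1_BA.

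The gene side of the summit differed as well. ARR1∆DDK-only summits lay inside a gene in 740 of 1335 peaks (55.4%), upstream of the nearest gene in 403 (30.2%) and downstream of it in 131 (9.81%). ARR1_BA-only summits lay inside a gene in 576 of 1394 (41.3%), upstream in 414 (29.7%) and downstream in 283 (20.3%). Over all nuclear positions the shares are 64.1% inside, 16.8% upstream and 12.3% downstream within 1.5 kb. Of the summits inside protein-coding genes, 463 of 685 ARR1∆DDK-only ones (67.6%, 64.0 to 71.0) fell in a 5′ UTR, against 240 of 521 ARR1_BA-only ones (46.1%, 41.8 to 50.4). Summits in 3′ UTRs made up 37 of 685 (5.40%, 3.94 to 7.36) for ARR1∆DDK-only and 110 of 521 (21.1%, 17.8 to 24.8) for ARR1_BA-only. Introns held 16 of the 685 (2.34%, 1.44 to 3.76) for ARR1∆DDK-only and 65 of the 521 (12.5%, 9.91 to 15.6) for ARR1_BA-only.

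**Figure D3:**
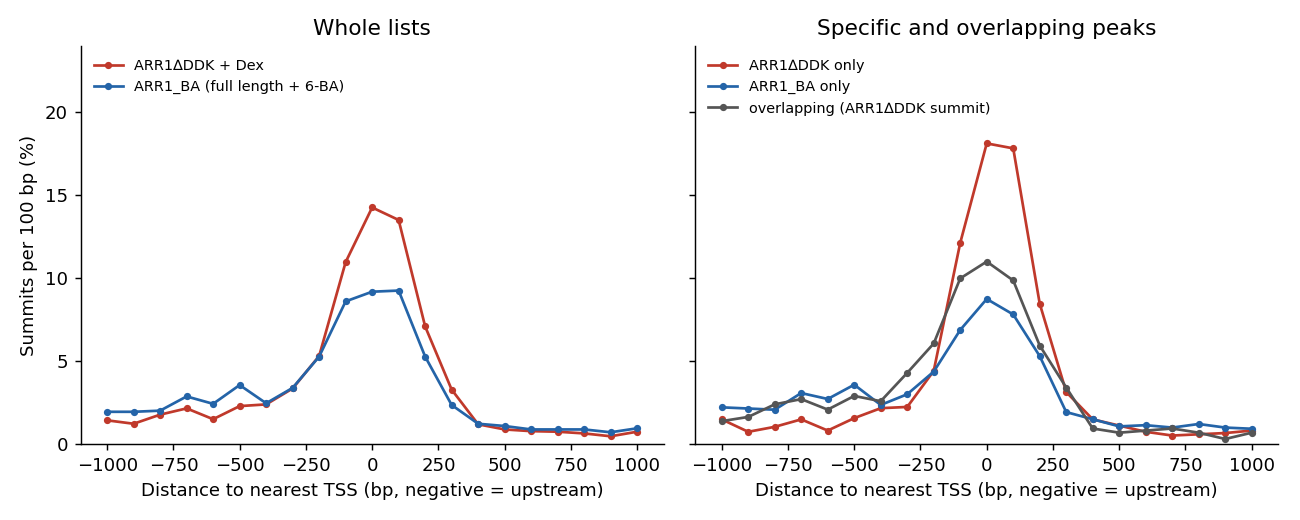
Distance from the summit to the nearest TSS (bp, negative upstream) as percent of summits per 100 bp, for the whole lists (left) and for ARR1∆DDK-only, ARR1_BA-only and overlapping peaks (right). In the bin at the TSS, 18.1% of ARR1∆DDK-only and 8.75% of ARR1_BA-only summits were found.

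The motif content of the list-specific peaks also differed. A B-ARR-6-BA word stood within the 200 bp around the summit in 2435 ARR1∆DDK peaks (83.5%, 82.1 to 84.8) and 2026 ARR1_BA peaks (69.5%, 67.8 to 71.1). Such short words are common and a match is a description, not a binding site; 59.4% of all 200-bp windows of the genome hold one, as did 62.0% of the windows 500 bp to either side of ARR1∆DDK summits and 60.2% of those beside ARR1_BA summits. ARR1∆DDK-only peaks held the motif in 83.7% (81.7 to 85.6) of summit windows, and so did 82.9% (79.5 to 85.8) of the 544 with no ARR1_BA peak. In ARR1_BA-only peaks the share was 61.3% (58.8 to 63.9), next to 59.1% in their own flanks. In overlapping peaks it was 83.3% (81.4 to 85.1) at the 1581 ARR1∆DDK summits and 76.9% (74.8 to 79.0) at the 1522 ARR1_BA summits. These windows were not matched pair by pair, and the summits of some pairs were far apart. Where a word was present, it lay a median of 25 bp from the summit in overlapping ARR1∆DDK peaks, 24 bp in ARR1∆DDK-only peaks and 34 bp in ARR1_BA-only peaks.

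The W-box core TTGAC ran the other way. It was found in 38.3% (35.7 to 40.9) of ARR1∆DDK-only windows and in 57.2% (54.6 to 59.7) of ARR1_BA-only windows, against 34.2% of all genome windows. In overlapping peaks the shares were 45.8% at the ARR1∆DDK summits and 49.7% at the ARR1_BA summits. Over the 10 lists the share ran from 37.9% in ARR14 at 3 days to 56.0% in ARR10 with 6-BA. It was 42.4% in the ARR1∆DDK list and 53.3% in the ARR1_BA top list, so a high share was not particular to ARR1_BA. A TTGAC word without any B-ARR-6-BA word stood in 82 of 1335 ARR1∆DDK-only windows (6.14%) and in 297 of 1394 ARR1_BA-only windows (21.3%). B-ARR-6-BA words without TTGAC stood in 689 ARR1∆DDK-only windows (51.6%) and 355 ARR1_BA-only windows (25.5%). The G-box CACGTG, bound by bHLH and bZIP factors, was dense in every set. It stood in 21.4% of ARR1∆DDK-only, 14.4% of ARR1_BA-only and 27.1% of overlapping windows, against 2.19% of genome windows. GGCCCA, a word of TCP sites, was found in 17.5% of ARR1∆DDK-only windows and 5.95% of ARR1_BA-only windows, against 3.05% of genome windows.

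Mean GC content of the summit windows was 41.1% in ARR1∆DDK-only and 36.9% in ARR1_BA-only peaks, and its part in the motif shares was not tested. GAGAGA stood in 31.9% of ARR1∆DDK-only and 26.4% of ARR1_BA-only windows (17.1% of genome windows). The telo box AAACCCT stood in 5.24% of ARR1∆DDK-only and 2.22% of ARR1_BA-only windows (5.07% of genome windows). Among all 6-base words in at least 10% of summit windows, CACGTG had the highest ratio of summit to flank share in both specific sets, 9.23 in ARR1∆DDK-only and 6.09 in ARR1_BA-only peaks. It was followed by ACGTGG (ratio 7.67) and CGTGGC (ratio 6.66) in ARR1∆DDK-only peaks, and by CGTGTC (ratio 3.49) and ACACGT (ratio 3.14) in ARR1_BA-only peaks. In overlapping peaks GGGACC (ratio 8.92), ACGCGC (ratio 8.42) and GGACCC (ratio 8.31) stood above CACGTG (ratio 7.73). GGGACC can be read in the ARR4 stretch printed above, beside its B-ARR-6-BA word.

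**Figure D4:**
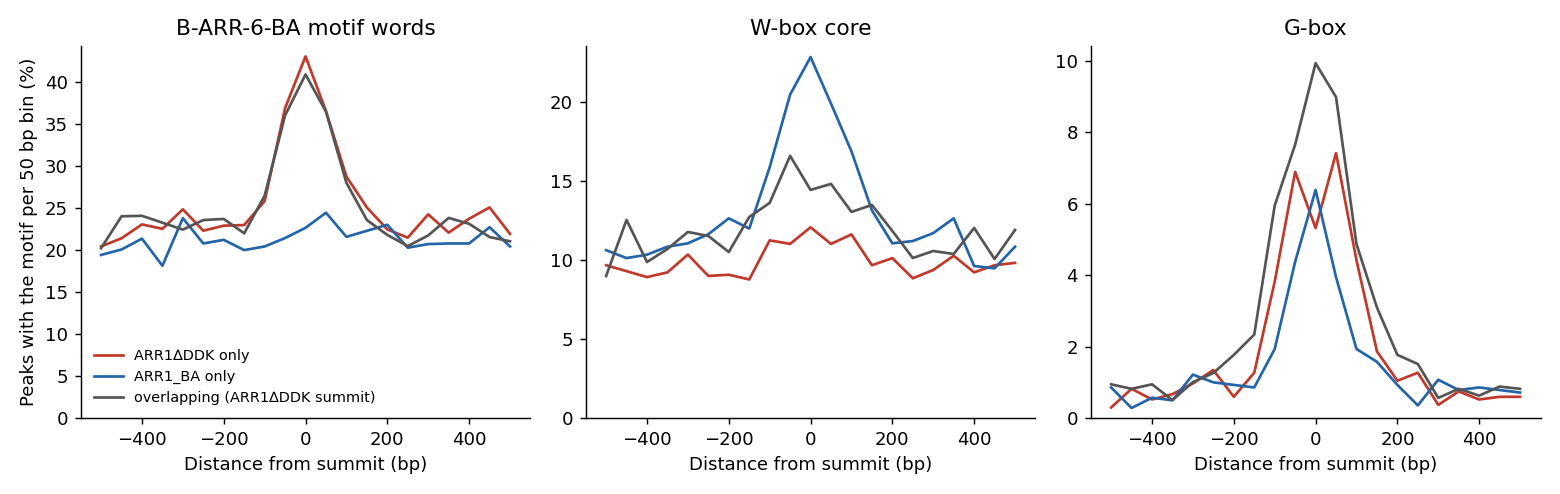
Percent of peaks with a motif word in each 50-bp bin from 500 bp before to 500 bp after the summit, for the B-ARR-6-BA words (left), TTGAC (middle) and CACGTG (right), each panel with its own axis from 0. At the summit bin the B-ARR-6-BA words reached 43.1% in ARR1∆DDK-only and 22.7% in ARR1_BA-only peaks, and TTGAC 12.1% in ARR1∆DDK-only and 22.8% in ARR1_BA-only peaks.

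The list-specific peaks were then looked up in the other 8 lists of the series, at the same number of top peaks where a list had that many. ARR1∆DDK-only peaks were found most often in the 2 lists of seedlings kept on 6-BA for 3 days, in 35.5% (33.0 to 38.1) for ARR14 and 24.3% (22.1 to 26.7) for ARR1. In the ARR10 lists they were found in 10.9% (9.30 to 12.6) with 6-BA for 4 h and 12.1% (10.5 to 14.0) with mock treatment. Their shares were 17.1% and 15.7% in the ARR12 lists labelled mock and 6-BA, 8.39% in etiolated ARR1 and 5.39% in ARR1 mock. ARR1_BA-only peaks were found in the ARR10 lists in 67.9% (65.4 to 70.3), with 946 of 1394 in each. They were found in 50.5% (47.9 to 53.1) of cases for ARR1 at 3 days and in 34.7% (32.3 to 37.3) for ARR14 at 3 days. Their shares were 53.9% and 37.2% in the ARR12 lists labelled mock and 6-BA, 31.6% in ARR1 mock and 19.9% in etiolated ARR1. With every deposited peak counted, so with lists of unequal length, peaks covered 4.93% of the 100 kb around the ARR1 start site in ARR1∆DDK and 41.7% in ARR1_BA (21.9% for its top peaks). The cover was 56.2% in ARR10 mock, 54.2% in ARR10 with 6-BA, 51.7% in etiolated ARR1, 43.4% in ARR1 mock, 35.1% in ARR1 at 3 days, 15.997% in ARR14, and 7.24% and 3.15% in the ARR12 lists. Without summits in these 100 kb, 54.2% of ARR1∆DDK peaks and 52.2% of ARR1_BA top peaks overlapped the other of the 2 lists. The part of this stretch in the overlaps with the other 8 lists was not tested. Looked up in every deposited peak of those 8 lists, 28 of the 1335 ARR1∆DDK-only peaks (2.10%) and none of the 1394 ARR1_BA-only peaks were in no other list.

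As a yardstick, ARR1∆DDK shared 56.2% of its peaks with ARR1 at 3 days, cut to the same length,, 55.0% with ARR14 at 3 days and 50.8% with ARR10 at 4 h, next to the 54.2% with ARR1_BA. ARR1_BA shared 76.4% of its peaks with ARR10 at 4 h, 67.5% with ARR1 at 3 days and 53.8% with ARR14 at 3 days. With ARR10 mock the shares were 48.7% for ARR1∆DDK and 73.9% for ARR1_BA. With the ARR12 list labelled mock they were 46.6% for ARR1∆DDK and 63.4% for ARR1_BA. The B-ARR-6-BA motif share of the ARR1∆DDK list (83.5%) was second to that of ARR14 at 3 days (89.99%) among the 10 lists, and the other 8 lay between 61.04% and 75.7%.

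A gene counted as in range of a peak whose summit it contained or that had its summit up to 1.5 kb beyond the gene's ends. Of 37899 nuclear genes and pseudogenes, 4687 (12.4%) were in range of an ARR1∆DDK peak and 4370 (11.5%) in range of an ARR1_BA top peak. Both lists reached 2396 genes (6.32%), which is 51.1% of the ARR1∆DDK genes and 54.8% of the ARR1_BA genes. In range of ARR1∆DDK alone were 2291 genes (6.05%) and of ARR1_BA alone 1974 (5.21%). Of the 2291, 1367 had a lower ARR1_BA peak in range and 924 had none.

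The strongest ARR1∆DDK peak (score 303.40) stood in AT1G45163 and AT1G45165, which overlap on opposite strands, with AT1G45160 and AT1G07293 also in range, and there ARR1_BA had a peak of 46.17 with its summit 34 bp away. Next came AT1G49500 with 273.76 in ARR1∆DDK and 107.55 in ARR1_BA, BBX28 (a B-box factor) with 257.91 and 63.19, and the circadian clock gene GI with 252.44 and 81.31. AT4G03600, with AT4G03590 and AT4G03610 in range of the same peaks, also scored 252.44 in ARR1∆DDK and 87.76 in ARR1_BA. The strongest ARR1_BA peak scored 143.60 in ARR1∆DDK and 120.42 in ARR1_BA, with the ARR1∆DDK summit 779 bp upstream of AT2G25482 and on the 3′ side of EBF1, an F-box protein gene of ethylene signalling, with AT2G25480 also in range. ARR4 followed with 187.88 in ARR1∆DDK and 112.50 in ARR1_BA, and then AT1G49500 and the peak shared by CKX5, UBC16 and AT1G09553. AT4G37550 scored 79.37 in ARR1∆DDK and 99.92 in ARR1_BA, and AT1G02210, AT1G08785 and AT1G04093 shared peaks of 171.71 in ARR1∆DDK and 99.23 in ARR1_BA.

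All 10 A-ARR genes were in range of both lists, against 6.32% of all genes. ARR5 had 225.52 in ARR1∆DDK (gene rank 12 of 4687) and 71.84 in ARR1_BA (gene rank 197 of 4370). ARR7 had 205.44 (rank 36) in ARR1∆DDK and 81.92 (rank 90) in ARR1_BA. ARR4 was at rank 72 in ARR1∆DDK and rank 4 in ARR1_BA, and ARR9 at rank 73 in ARR1∆DDK and rank 48 in ARR1_BA. The median percentile of the 10 A-ARRs was 3.09 in ARR1∆DDK and 7.12 in ARR1_BA, where 0 is the highest gene, but not every member ranked high. ARR3 was at percentile 47.3 in ARR1∆DDK and 32.5 in ARR1_BA, ARR17 at 31.02 and 61.99, and ARR8 at 4.57 and 91.2. The remaining scores were 164.30 in ARR1∆DDK and 79.39 in ARR1_BA for ARR15, 155.93 and 59.90 for ARR16, and 79.37 and 56.45 for ARR6. In 7 of the 10 genes the highest summits of both lists were 15 to 61 bp apart.

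In the other 3 A-ARR genes the highest summits were at different places. ARR8 had 139.55 in ARR1∆DDK, 1192 bp upstream of its TSS, and 23.30 in ARR1_BA, 2536 bp into the gene in its 3′ UTR. ARR17 had 65.10 in ARR1∆DDK, 501 bp upstream, and 29.34 in ARR1_BA, 1805 bp past the TSS on the downstream side. ARR3 had 50.94 in ARR1∆DDK, 1329 bp into the gene, and 39.83 in ARR1_BA, 2597 bp past the TSS on the downstream side. A gene in range of both lists thus need not share a site.

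The cytokinin receptor gene AHK4 scored 139.55 in ARR1∆DDK and 93.13 in ARR1_BA, at the intron site printed above. AHK3 had no ARR1∆DDK peak and 23.68 in ARR1_BA, and AHK2 was in range of neither list. Among the phosphotransfer genes, AHP5 (37.21) and AHP6 (38.59, a pseudo-phosphotransfer protein that inhibits the relay) were in range of ARR1∆DDK alone among the top lists, and AHP1 of ARR1_BA alone (28.89). AHP5 had a lower ARR1_BA peak of 15.30. Among the 11 B-ARR genes, ARR18 (95.08 in ARR1∆DDK, 41.58 in ARR1_BA) and ARR20 (44.27 and 25.40) were in range of both lists, and ARR12 (36.36) and ARR1 itself (33.02) of ARR1_BA alone. Of all genes, 12.4% were in range of ARR1∆DDK and 11.5% of ARR1_BA, with 6.32% in both. The shares for 1 list alone were 6.05% for ARR1∆DDK and 5.21% for ARR1_BA. ARR1 is the tagged gene, and the 50 kb to either side of its start site held 5 ARR1∆DDK and 8 ARR1_BA top peaks.

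The cytokinin response factor genes (CRFs, AP2/ERF factors) stood high in ARR1∆DDK. All but CRF5 of the 6 were in range of an ARR1∆DDK peak, and all but CRF2 in range of an ARR1_BA top peak. The shares of all genes were 12.4% for ARR1∆DDK and 11.5% for ARR1_BA. CRF3 scored 126.66 in ARR1∆DDK and 25.23 in ARR1_BA, CRF4 121.71 and 40.84, CRF6 109.24 and 51.42, and CRF1 85.69 and 23.34. Their summits in the 2 lists were 27 to 37 bp apart. CRF2 scored 127.36 in ARR1∆DDK, with an ARR1_BA summit 6 bp away at 18.96, below the limit of the top list. CRF5 had no ARR1∆DDK peak and 31.62 in ARR1_BA. The median percentile of the CRF genes in range was 6.89 in ARR1∆DDK and 53.9 in ARR1_BA.

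The KMD genes, whose F-box products send B-ARRs to degradation, were the opposite case. None of the 4 was in range of an ARR1∆DDK peak, and all 4 were in range of an ARR1_BA top peak. Their ARR1_BA scores were 45.04 for KMD1, 41.55 for KMD3, 39.33 for KMD2 and 32.25 for KMD4, with each summit in the coding sequence. Among all genes, 5.21% were in range of ARR1_BA alone. The ARR1∆DDK list reaches down to 31.21 on its own scale, so weaker ARR1∆DDK signal at these genes was not detectable in it.

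Genes that break down cytokinin were split. CKX5, a cytokinin oxidase gene, was in range of peaks of 224.68 in ARR1∆DDK and 107.55 in ARR1_BA, whose summits were 2246 bp apart. The ARR1∆DDK summit stood 111 bp into the neighbour UBC16, downstream of CKX5, and the ARR1_BA summit in a CKX5 intron. CKX4 scored 43.55 in ARR1∆DDK and 51.97 in ARR1_BA. CKX7 was in range of ARR1∆DDK alone among the top lists (59.59, with 19.34 in ARR1_BA below the limit), and CKX3 (36.06) and CKX6 (22.92) of ARR1_BA alone. Of the 9 genes for isopentenyltransferases, which start cytokinin synthesis, none was in range of ARR1∆DDK and IPT5 (30.70) was in range of ARR1_BA. For comparison, 12.4% of all genes were in range of ARR1∆DDK and 11.5% in range of ARR1_BA. Of the 9 LOG genes, which release active cytokinin, LOG2, LOG7 and LOG9 were in range of both lists and LOG8 (27.93) of ARR1_BA alone. LOG2 scored 84.60 in ARR1∆DDK and 70.81 in ARR1_BA, with summits 1418 bp apart inside the gene.

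Of the 6 genes of cytokinin hydroxylation, glucosylation and transport, 3 were in range of both lists. UGT76C2 scored 66.73 in ARR1∆DDK and 67.60 in ARR1_BA, UGT85A1 48.07 and 37.97, and the transporter gene ABCG14 32.51 and 38.33. Over the 71 genes of the cytokinin lists, 29 (40.8%) were in range of ARR1∆DDK and 38 (53.5%) of ARR1_BA. The shares of all genes were 12.4% for ARR1∆DDK and 11.5% for ARR1_BA. Both lists reached 25 of the 71, ARR1∆DDK alone 4 and ARR1_BA alone 13. Of all genes, both lists reached 6.32%, ARR1∆DDK alone 6.05% and ARR1_BA alone 5.21%.

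Of the meristem genes, CLV3 had an ARR1∆DDK peak of 70.87 at 1067 bp upstream of its TSS and no ARR1_BA peak among all 7846. CLV1, a receptor kinase in the CLV3 pathway, had no ARR1∆DDK peak and 27.56 in ARR1_BA. WUS, the stem cell regulator, had no ARR1∆DDK peak and a lower ARR1_BA peak of 16.72 at 428 bp upstream. STM was in range of neither list. The ARR1∆DDK list ends at a score of 31.21, so weaker ARR1∆DDK signal at WUS, CLV1 or STM would not appear in it. The study's own figure of binding at the WUS promoter includes ARR1∆DDK plants given Dex. CLV3 was not counted by the study among the targets of its tested B-ARRs, unlike in the ARR1∆DDK list here. The peak is not particular to ARR1∆DDK. With every deposited peak counted, CLV3 was also in range of peaks of ARR1 at 3 days (18.39) and ARR14 at 3 days (44.44), and of no other list.

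**Figure D5:**
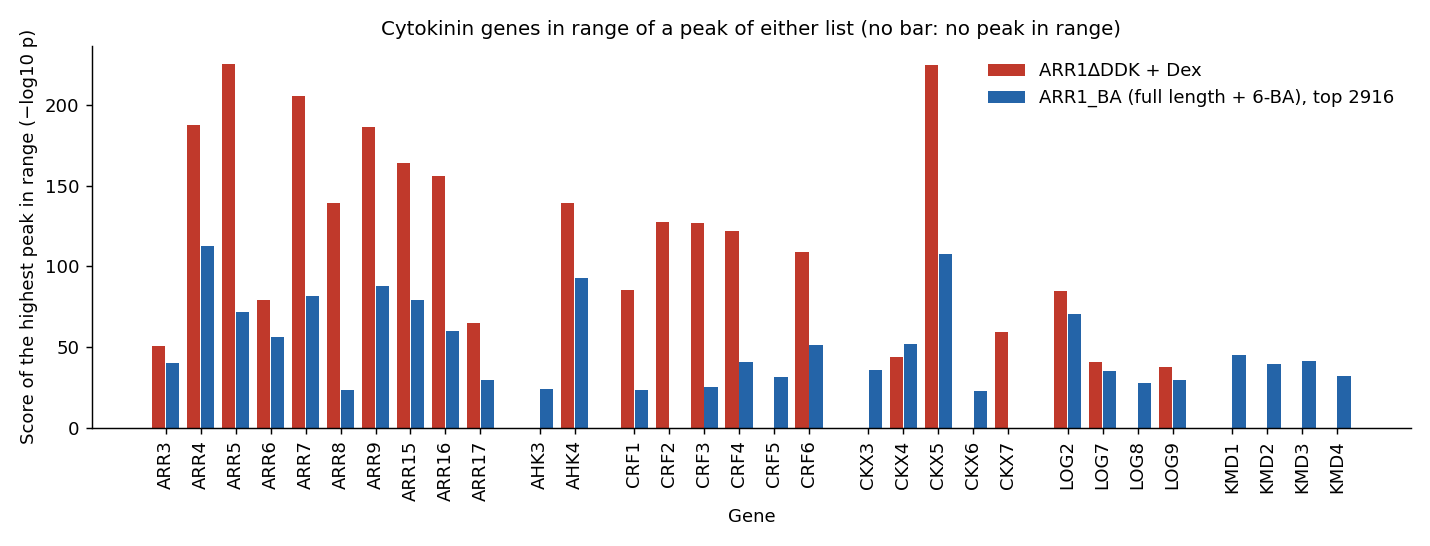
Score (−log10 p) of the highest peak in range of A-ARR, AHK, CRF, CKX, LOG and KMD genes, ARR1∆DDK + Dex (red) left of ARR1_BA top peaks (blue), with no bar where no peak was in range. Scales differ between lists. ARR5 scored 225.52 in ARR1∆DDK and 71.84 in ARR1_BA, CRF3 126.66 in ARR1∆DDK and 25.23 in ARR1_BA, and KMD1 to KMD4 had bars for ARR1_BA alone.

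Genes ranked high in one list and out of the range of the other were few. Among the 306 genes at gene rank 300 or above in ARR1∆DDK (ties included), 21 (6.86%) had no ARR1_BA top peak in range, and these rested on 13 peaks. Each of the 13 peaks overlapped an ARR1_BA peak of some score. For 17 of them a lower ARR1_BA peak was in range, with scores of 9.85 to 21.06 (median 17.52), and its summit was within 100 bp of the ARR1∆DDK summit for 14. The peaks of the other 4 (AT3G00330, AT1G74929, AT1G09557 and ECR1) overlapped an ARR1_BA top peak whose summit was farther off. The highest was AT3G00330 (215.61 in ARR1∆DDK).

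Further genes of this kind were AT5G55640 and the potassium channel gene KCO1, which scored 169.59 in ARR1∆DDK and 18.19 in ARR1_BA. ATRER1C1 and AT2G23300 scored 168.67 in ARR1∆DDK and 17.52 in ARR1_BA. AT1G74929 scored 153.86 in ARR1∆DDK. AT5G09443, with AT5G09445 and EXL4, scored 152.73 in ARR1∆DDK and 14.27 in ARR1_BA, with summits 1791 bp apart. BBX29 scored 131.87 in ARR1∆DDK and 20.35 in ARR1_BA, with summits 17 bp apart. The highest ARR1∆DDK peaks with no ARR1_BA peak of any score came much later, at rank 227 (115.91, downstream of XT2, a xylosyltransferase gene), rank 276 (108.72, 176 bp into AT5G47390) and rank 293 (106.42, 129 bp upstream of AT5G50640). The next of these peaks scored 104.99 (70 bp into AT5G22040), and the one after it stood at rank 345 (98.99, 20 bp upstream of CAB1, a chlorophyll-binding protein gene).

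Among the 305 genes at gene rank 300 or above in ARR1_BA, 44 (14.4%) had no ARR1∆DDK peak in range, and these rested on 27 peaks. The peaks of 12 of these genes overlapped an ARR1∆DDK peak whose summit was out of range, and the peaks of the other 32 overlapped none. AT5G41590, PFT1, AT3G15220 and GH3.9, named below, were among the 12. The highest was shared by AT4G38840, SAUR15, CRK26 and AT4G09765 (91.79 in ARR1_BA), with its summit 245 bp upstream of AT4G38840. AT5G41590 followed with 89.79, and PFT1 (a Mediator subunit gene), AT2G41730 and VLN2 (an actin-bundling protein) with 89.13. AT3G15220 scored 87.15. EXO70B2, an exocyst subunit gene, and SLP1 scored 82.15. Further down came GH3.9 (81.95, auxin conjugation), MO1 (81.31), the nitrate reductase gene NIA2 (78.12), RAV2 (74.35), CRK11 and CRK12 (73.73), and NAC102 (67.45).

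Gene families were also counted over their full membership, and were chosen after values of these data were seen. The counts are of genes, not of peaks, and neighbouring family members can share a peak. AT4G38840 and SAUR15 shared 1 ARR1_BA peak (91.79), as did CRK11 and CRK12 (73.73). CRK18 and CRK19 had equal scores in each list, 48.68 in ARR1∆DDK and 54.76 in ARR1_BA. Of 41 cysteine-rich receptor-like kinase genes, 4 were in range of ARR1∆DDK and 10 of ARR1_BA, with no gene in range of ARR1∆DDK alone. Of 80 SAUR genes, 9 were in range of ARR1∆DDK and 16 of ARR1_BA, with 4 in both. Of 71 WRKY genes, 17 were in range of ARR1∆DDK and 21 of ARR1_BA, with 14 in both. Of 29 Aux/IAA genes, which encode auxin repressors, 10 were in range of ARR1∆DDK and 13 of ARR1_BA, with 8 in both. TCP genes showed no lean, with 6 of 22 in range of each list and 5 in both. BBX genes leaned to ARR1∆DDK, with 16 of 30 in its range and 11 in that of ARR1_BA, all of the 11 in both. Of 20 genes for light-harvesting proteins, 9 were in range of ARR1∆DDK and 6 of ARR1_BA, with 3 in both. Of these, LHCA4 scored 180.51 in ARR1∆DDK and 28.05 in ARR1_BA, and LHCB2.1 scored 123.66 and 36.36. Beside these counts, 12.4% of all genes were in range of ARR1∆DDK and 11.5% in range of ARR1_BA.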

How the data were processed

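Of each list the 2916 highest peaks were used, the full length of the ARR1∆DDK list. The authors aligned single-end reads with Bowtie 0.12.7 to TAIR10, keeping reads that map to 1 place, called peaks against input with MACS2 2.0.10 and combined at least 2 replicates by IDR (tools from the submitters' notes and the study's methods). The deposited lists, 1 a condition, give start, end and summit offset (positions in bp), fold enrichment (a ratio to input) and −log10 p, used here as the score. They give no read counts, so depth and depth-based precision are unknown. Deposited positions of the 2 lists fell within RefSeq TAIR10.1, whose genes and sequence were used. Computed here (Python 3.11.15): overlap of at least 1 bp, summit distances, nearest TSS, genes within 1.5 kb of a summit, motif words in 200-bp summit windows and in flanks 500 bp away, and ranks by score, ties by fold. Samples were grouped by title and treatment. The 2 control libraries and 2 RNA-seq records were not analysed here. No test was run, since no replicate values exist. The scripts were tested on simulated data. Named genes were the 10 highest of each list, the 10 highest of each out of range of the other list (ties included), and the cytokinin and meristem gene lists, whose members in range of neither list are mostly given as counts; 1 peak that this rule names is not reported here. BBX29, GH3.9, MO1, NIA2, RAV2, CRK11, CRK12, NAC102, LHCA4, LHCB2.1, XT2, AT5G47390, AT5G50640, AT5G22040 and CAB1 were chosen after their values were seen. The regions, gene lists and motifs were chosen with earlier results of these data known. Alternatives changed the overlap rule, the peaks entering, the gene set, distances, windows, motif and ranking.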

Additional observations from a re-analysis of the deposited data

How the results depend on the processing

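No paired analysis was possible because replicates were merged into 1 list. Of 51 alternative values, 21 stayed within the counting interval of the value reported (counts of genes within 1.5 times) and 30 moved; the cause was not tested beyond what the setting itself changes. The share of ARR1∆DDK peaks overlapping ARR1_BA and its counterpart for ARR1_BA were both 41.8% with summits at most 100 bp apart, both 36.1% with reciprocal overlap of 50% and both 45.0% with 200-bp windows. They were 81.3% and 29.95% with every deposited peak, 67.5% and 42.0% with a −log10 p of at least 16, and 47.5% and 46.5% for the top 1000. Keeping every tied peak, an alternative chosen after seeing the data, ranking by fold and leaving out 50 kb around ARR1 moved neither. Median summit distance was 33 bp for the top 1000 and 28 bp with both peaks under 1 kb wide. The share within 250 bp of a TSS was 46.8% for ARR1∆DDK and 33.6% for ARR1_BA with protein-coding genes, 63.2% and 49.3% within 500 bp, and 46.8% and 29.7% at the interval's midpoint. The B-ARR-6-BA motif share was 62.7% for ARR1∆DDK and 48.0% for ARR1_BA in 100-bp windows, 94.1% and 89.1% in 400-bp windows, 87.4% and 75.5% in the top 1000, and 95.5% and 91.1% with the AGAT core. High genes of ARR1∆DDK out of range of ARR1_BA numbered 4 with every deposited peak and 53 with the nearest gene alone. Those of ARR1_BA stayed between 44 and 56. For ARR1_BA the 44 with every deposited peak could not differ, because all deposited ARR1∆DDK peaks were already used. It still counts among the 21 above, and says nothing on how stable these genes are. ARR1∆DDK stayed above ARR1_BA in the TSS and motif shares under every alternative run.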

Other observations

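The ARR1_BA summit lay at a lower coordinate than the ARR1∆DDK summit in 932 of 1581 pairs (58.95%, 95% Wilson interval 56.5 to 61.4) and at a higher one in 639 (40.4%, 38.0 to 42.9), with a median shift of -11 bp on the reference strand. Turned to the strand of the nearest gene, the median was 2 bp, with 805 summits farther downstream and 766 farther upstream. Over pairs within 100 bp, the median shift against ARR1∆DDK was -12 bp for ARR1 at 3 days, ARR10 mock and ARR14 at 3 days, -11 bp for ARR10 at 4 h, -9 bp for ARR1_BA and -17.5 bp for ARR1 mock. It was -1 bp for etiolated ARR1 and 0 and 7 bp for the ARR12 lists labelled mock and 6-BA. The sequenced fragment lengths behind the summits were not analysed here.

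ARR1∆DDK-only peaks were in a median of 4 of the other 8 lists when every deposited peak counted, and ARR1_BA-only peaks in a median of 5. All 8 held 8 of the 1335 ARR1∆DDK-only peaks (0.599%) and 79 of the 1394 ARR1_BA-only peaks (5.67%). The 544 ARR1∆DDK peaks with no ARR1_BA peak were in the full ARR14 list in 79.8% (76.2 to 82.9) and in the full list of ARR1 at 3 days in 69.5% (65.5 to 73.2). They were in the full ARR10 lists in 44.3% (40.2 to 48.5, mock) and 27.8% (24.2 to 31.7, 6-BA). These lists hold 9913 peaks for ARR14, 10904 for ARR1 at 3 days, 11499 for ARR10 mock and 8680 for ARR10 with 6-BA, against 7846 for ARR1_BA.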
